A study of Mus musculus with 22 samples.

Results

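The Hox genes were followed through cultures of primed mouse epiblast stem cells (mEpiSCs) during reversion to the naive state and in the cells expanded afterwards. All rows of the deposited gene counts whose symbol is Hoxa, Hoxb, Hoxc or Hoxd followed by a paralog number were taken, which gave 39 of 34489 genes in 22 libraries. The rule used gene symbols only, but earlier results of these data were known when it was set.

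Hox proteins are homeodomain transcription factors that give cells of the embryo their identity along the head-to-tail axis. Their genes lie in 4 clusters and, within a cluster, are switched on in the order in which they lie, with genes at one end active first and towards the head (here "anterior", paralog groups 1 to 3) and genes at the other end active last and towards the tail ("posterior", groups 9 to 13), with the "central" groups 4 to 8 between them. Pluripotent cells hold the clusters under Polycomb repression, and Wnt, FGF and retinoic acid signals, relayed in part by Cdx factors, are known to open them. Fibroblasts keep a Hox profile that records the part of the body they came from.

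Oct4GIP is a 129/Ola mEpiSC line with an eGFPiresPuro transgene driven by the Oct4 promoter and enhancer. Its cells were plated on mouse embryonic fibroblast (MEF) feeders and kept for 8 or 16 days (d8, d16) in Basal medium, which contains some serum, alone or with 2iL (the MEK and GSK3 inhibitors plus LIF that maintain naive cells), AICAR (an activator of the kinase AMPK) or AICAR+LIF. Reverted cells came from d16 cultures with AMPK activators, moved to 2iL on gelatin for 2 or 3 passages (2p, 3p; AICAR or AICAR+LIF) or for 10 passages (10p). The 10p libraries came from Oct4GIP with AICAR, AICAR+LIF, A769662, A769662+LIF or metformin+LIF (A769662 and metformin are other AMPK activators) and from the 129/MSM mEpiSC line with AICAR or AICAR+LIF. The comparison cells were 129/Ola naive Rex1-GFP mouse embryonic stem cells (mESCs), with GFP driven by the Rex1 promoter, and untreated primed mEpiSCs of Oct4GIP (on fibronectin) and 129/MSM (on MEFs), both fed with FGF2 and Activin A. Each condition was sequenced as 1 library of whole cultures or lines, so nothing was replicated. Libraries were grouped as naive (1), primed (2), d8 (4), d16 (4), reverted 2-3p (4) and reverted 10p (7), and p-values measure the spread between libraries of a group, which differ in activator, passage or line.

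Library totals ran from 438771 counts (AICAR+LIF d8) to 5290163 counts (Basal d16), and the level of 3 counts, used as the floor, ran from 0.565 to 5.93 CPM, that is counts scaled to a fixed library size. The 2 shallowest libraries were AICAR+LIF d8 and AICAR d8 (956357 counts), whose floors were 5.93 and 2.84 CPM. The 7 naive pluripotency markers summed to 4381 CPM in naive mESCs and 2981 to 5156 CPM in the reverted libraries, and to 18.0 and 28.4 CPM in the primed ones. The 8 culture libraries had 13.7 to 79.0 CPM of them. The 14 fibroblast and feeder markers summed to 3607 to 51265 CPM in cultures, against 22.4 to 116 CPM in reverted, 28.5 CPM in naive and 171 and 707 CPM in primed cells.

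The summed level of all 39 Hox genes was lowest in the primed libraries and highest in the 2iL cultures. It was 11.0 CPM in Oct4GIP and 22.4 CPM in 129/MSM primed cells. At d8 it was 257 CPM in Basal medium, 1255 CPM in 2iL, 156 CPM in AICAR and 134 CPM in AICAR+LIF. The same media gave 99.3, 308, 94.6 and 141 CPM at d16. Every culture library lay above both primed libraries, and each 2iL library lay above the other cultures of its day. Naive mESCs had 68.6 CPM, reverted 2-3p cells 33.0 to 51.5 CPM and reverted 10p cells 42.5 to 99.3 CPM, so reverted cells lay on both sides of the naive value. Of the 39 genes, 34 had over 3 counts in at least 1 library, and 31 did so in a culture. Primed Oct4GIP had 3 such genes, primed 129/MSM 6, and 2iL 30 at d8 and 28 at d16. In bulk samples, fewer cells with a transcript and less of it per cell cannot be told apart.

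**Figure D1:**
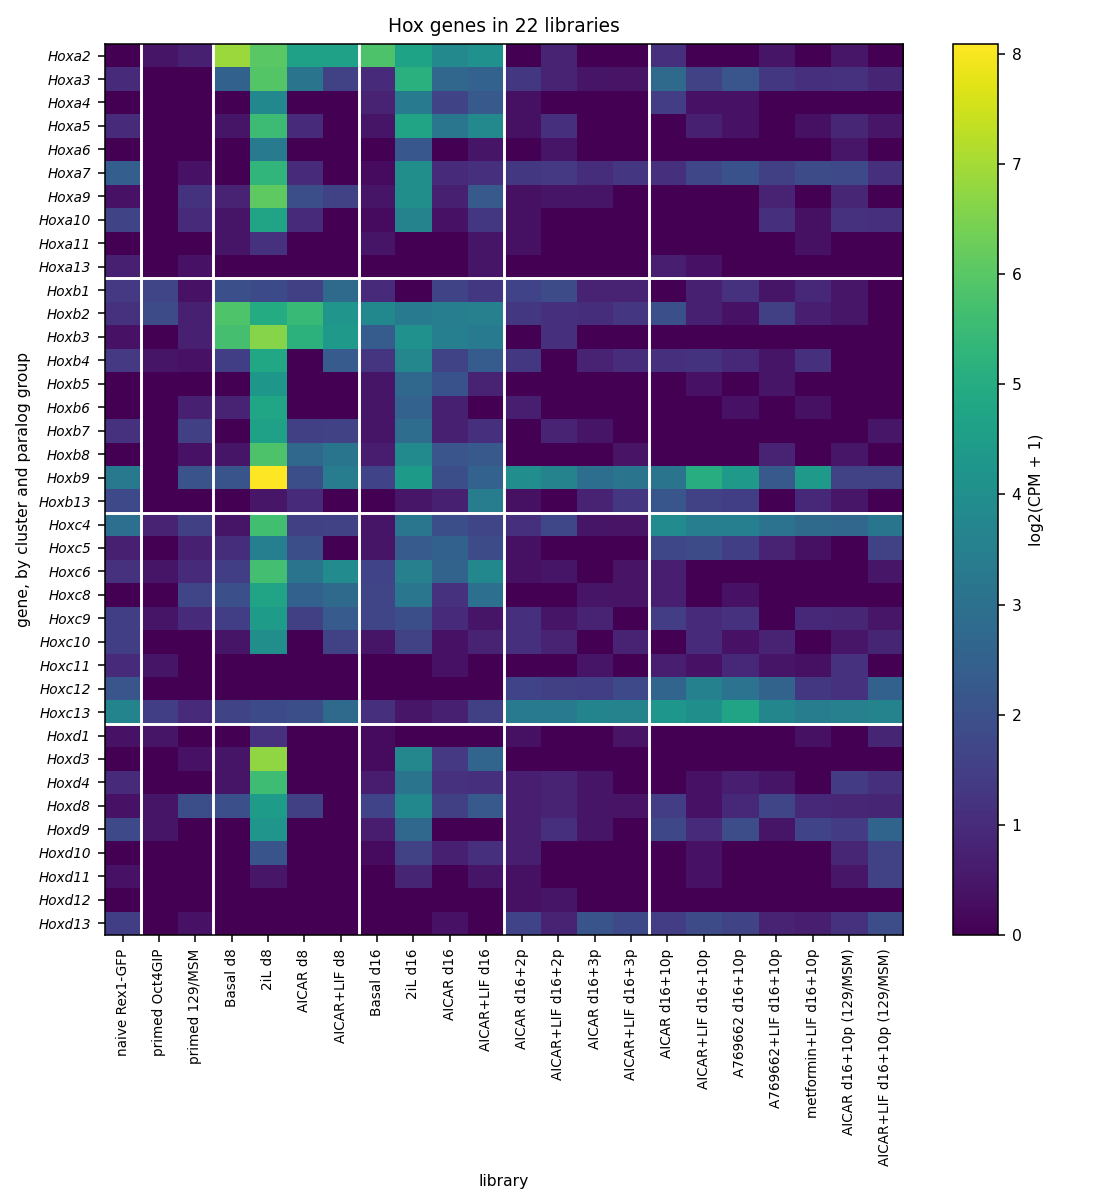
Level of the Hox genes (rows, by cluster and paralog group) in each of the 22 libraries (columns, by group), as log2(CPM + 1); white lines separate clusters and groups. The 2iL d8 column is bright from paralog group 2 to 10, Basal d8 is bright mainly at Hoxa2, Hoxb2 and Hoxb3, reverted cells are bright at Hoxc13, and reverted 10p cells also at Hoxc4.

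The 3 kinds of sample differed in which part of the clusters gave the reads. Anterior genes held 91.5% of Hox counts in Basal d8 and 80.3% in Basal d16, but 29.1% and 32.8% in 2iL d8 and d16. Posterior genes held 56.1% in naive mESCs and 43.0% to 78.0% in the reverted libraries. AICAR and AICAR+LIF cultures stood between Basal and 2iL, with 73.9% and 55.9% anterior at d8 and 51.8% and 41.3% at d16. The primed libraries were split on 30 and 71 Hox counts only.

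**Figure D2:**
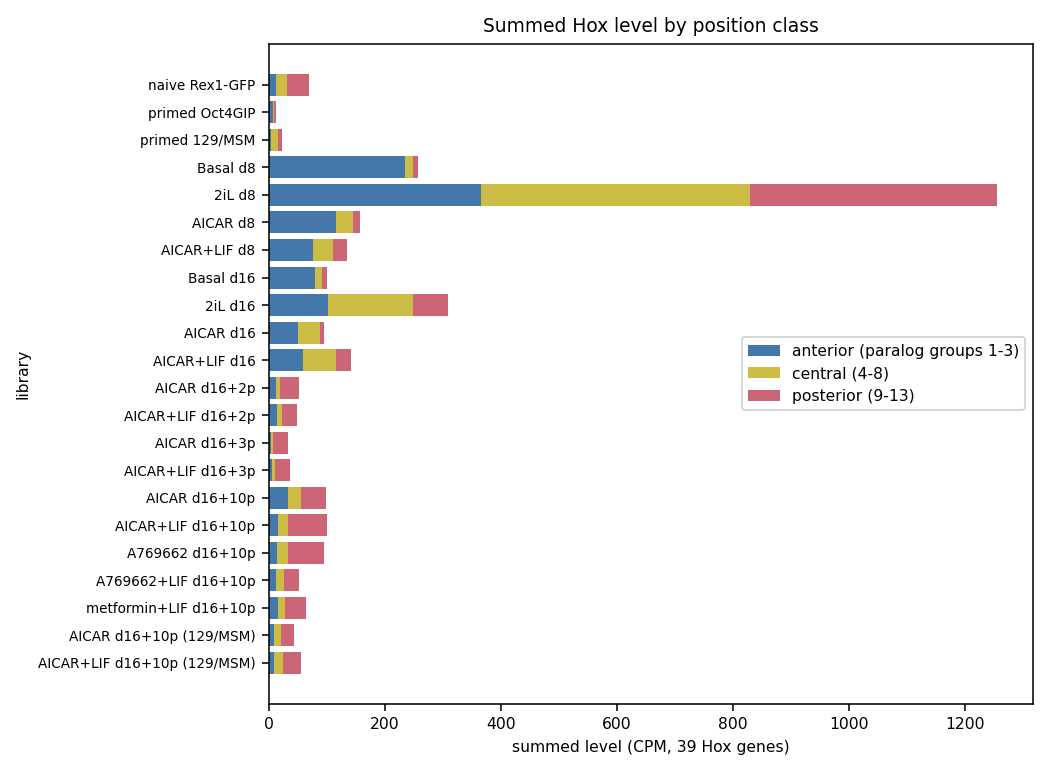
Summed CPM of the anterior, central and posterior Hox genes (stacked bars from 0) in each library. The bar of 2iL d8 reaches 1255 CPM with 365 CPM anterior, 463 CPM central and 426 CPM posterior, while Basal d8 reaches 257 CPM with 235 CPM anterior.

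The first question was which Hox genes differed between the cultures, all of Oct4GIP, and primed cells. The primed group held Oct4GIP, the line the cultures started from, and 129/MSM, another line kept in other conditions. Of the 39 Hox genes 12 were higher in cultures at an adjusted p under 0.05 in edgeR's quasi-likelihood test and none lower. 31 had passed the filter on low counts, many of them only through the cultures, and 18.1% of all 18739 genes tested were higher and 19.4% lower. Among the 12 were the anterior Hoxa2, Hoxb2 and Hoxb3, the central Hoxa5, Hoxb4, Hoxb8 and Hoxc6, and the posterior Hoxc10. All of these, and Hoxd4 described below, had passed the filter only through cultures, which favoured the direction seen. Such genes also enter the median given next. The median log2 difference of the 31 tested was 3.78, or 3.18 with the 8 genes that had no count in 1 group set at their bound, against 0.04 over all genes. The count rested on the small primed group and on the 2iL libraries. It was 4 without primed Oct4GIP, 5 without primed 129/MSM and 7 without both 2iL libraries (among them Hoxa2, Hoxb2, Hoxb3, Hoxb8 and Hoxc6), where 16.9% of genes were higher.

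Hoxa2, on the minus strand of chromosome 6 (chr6:52162417-52164831, GRCm38), patterns the hindbrain and the second branchial arch. At d8 it stood at 116 CPM in Basal medium, 64.3 CPM in 2iL, 23.7 CPM in AICAR and 23.7 CPM in AICAR+LIF. At d16 it stood at 56.2, 24.9, 13.1 and 16.2 CPM in the same order, against 0.368 and 0.632 CPM in primed Oct4GIP and 129/MSM. Every culture lay above both primed libraries and Basal was highest on each day. The log2 difference was 6.20 (SE 1.04, adjusted p = 0.000133). The primed libraries held 3 counts in all, and the ratio of the pooled counts was 92.1 (95% exact interval 31.4 to 448, counting error only). Hoxb2 and Hoxb3, which also pattern the hindbrain, did not rank the media alike. Hoxb3 had 50.7, 98.3, 36.0 and 19.8 CPM at d8 in Basal, 2iL, AICAR and AICAR+LIF and 4.15, 16.0, 10.3 and 9.41 CPM at d16, against 0 and 0.632 CPM in primed cells (log2 difference 5.90, SE 1.11, adjusted p = 0.000859). Its pooled ratio over 2 primed counts was 78.6 (21.7 to 651). It was highest in 2iL on each day, and Basal was its lowest culture at d16. Hoxb2 had 57.6, 30.3, 42.6 and 17.8 CPM at d8 and 12.8, 9.22, 9.99 and 10.5 CPM on d16, compared with 2.57 and 0.632 CPM (log2 difference 3.65, SE 0.70, adjusted p = 0.00044), highest in Basal on each day. For both genes the lowest culture lay above the highest primed library.

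Hoxa3, Hoxa5 and Hoxd4 were highest in 2iL on each day. Hoxa5, known for its part in lung and rib formation, had 45.6 CPM in 2iL d8 and 25.3 CPM in 2iL d16, 8.11 CPM in AICAR d16 and 13.2 CPM in AICAR+LIF d16, and at most 0.947 CPM in the other 4 cultures. It had no count in primed cells, so cultures were on average at least 10.6-fold higher than the primed floor (fitted log2 difference 8.07, SE 2.56, adjusted p = 0.0179). AICAR+LIF d8 had no count of it either, so the groups overlapped. Hoxa3 had 59.3 and 34.1 CPM in 2iL d8 and d16 and 0.942 to 7.58 CPM in the 6 other cultures, with no primed count, which made it at least 13.5-fold higher (fitted log2 difference 8.34, SE 2.23, adjusted p = 0.00641). Hoxd4 had 46.9 and 7.62 CPM in the 2iL cultures and at most 1.25 CPM in the others, again with no primed count, at least 6.55-fold higher (fitted log2 difference 6.98, SE 2.62, adjusted p = 0.0418). Hoxa3 in all 8 cultures exceeded the primed libraries, whereas Hoxd4 had no count in AICAR d8 and AICAR+LIF d8. Hoxb8, Hoxb4 and Hoxc6 differed from primed cells by 5.5 (SE 1.76, adjusted p = 0.0180), 4.13 (SE 1.49, adjusted p = 0.0344) and 4.04 (SE 1.14, adjusted p = 0.00838) on the log2 scale. Their pooled ratios over 1, 2 and 4 primed counts were 58.9 (10.4 to 2336), 18.9 (5.13 to 158) and 16.4 (6.31 to 60.6). The wide intervals follow the few primed counts.

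The promoter windows of a gene high in all cultures (Hoxa2) and of 2 genes highest in 2iL on each day (Hoxa5, Hoxb8) are shown, since these members moved together or apart by medium. The sequences are those of RefSeq on GRCm38.p6, from 250 bases before to 50 bases after the annotated start, 5′ to 3′ on the gene's strand. Capitals mark a Pbx-Hox motif (TGATNNAT or its reverse complement ATNNATCA) in Hoxa2 and Hoxb8 and a retinoid receptor half-site (AGGTCA or TGACCT) in Hoxa5.
Hoxa2 (chr6:52164782-52165081, minus strand): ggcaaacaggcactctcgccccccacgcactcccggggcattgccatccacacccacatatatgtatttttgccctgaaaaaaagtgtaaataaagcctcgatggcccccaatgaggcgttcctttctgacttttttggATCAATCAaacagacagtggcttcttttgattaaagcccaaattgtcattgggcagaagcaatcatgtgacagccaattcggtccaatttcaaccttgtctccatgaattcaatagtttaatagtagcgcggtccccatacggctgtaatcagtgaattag
Hoxa5 (chr6:52204538-52204837, minus strand): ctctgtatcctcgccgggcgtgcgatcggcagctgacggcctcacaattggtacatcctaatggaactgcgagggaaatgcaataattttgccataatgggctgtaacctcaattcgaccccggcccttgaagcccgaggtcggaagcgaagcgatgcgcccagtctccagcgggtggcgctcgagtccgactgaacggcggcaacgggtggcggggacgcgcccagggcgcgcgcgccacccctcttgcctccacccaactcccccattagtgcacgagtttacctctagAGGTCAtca
Hoxb8 (chr11:96281655-96281954, plus strand): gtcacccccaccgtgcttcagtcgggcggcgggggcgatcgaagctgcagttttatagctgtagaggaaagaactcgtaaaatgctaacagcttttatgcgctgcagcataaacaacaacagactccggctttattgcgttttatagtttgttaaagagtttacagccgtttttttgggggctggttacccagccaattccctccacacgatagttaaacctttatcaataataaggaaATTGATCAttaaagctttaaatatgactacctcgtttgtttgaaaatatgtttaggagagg
The windows held 9, 29 and 13 CpG, respectively. Windows were found for 22 of the 39 genes (24 windows), and 4 of the 24 (16.7%) held the Pbx-Hox motif against 8.85% of all 32851 windows in the table. The half-site was in 7 of 24 (29.2%) against 16.3%, and the TCF/LEF motif CTTTGA (or TCAAAG) in 4 of 24 (16.7%) against 16.0%. The Hox windows had a median of 14.5 CpG against 7 over all windows. These motifs do not overlap in the 3 windows shown, and a match is a string of letters, not a bound site.

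In the 2iL cultures, central and posterior genes stood beside the anterior ones. All 15 central genes had over 3 counts in 2iL and stood higher there than in Basal medium on both days. Basal d8 had 4 central genes over 3 counts and Basal d16 had 5. Of the 16 posterior genes 8 had over 3 counts in 2iL d8 and 7 in 2iL d16. Both 2iL libraries exceeded all 6 other cultures in 22 of the 39 genes, that is in 2 of 8 anterior, 13 of 15 central and 7 of 16 posterior genes. Among the genes tested this held for 18 of 25 Hox genes and for 1.31% of 15473 genes. 8 of the 25 passed the filter only through the 2iL libraries, and of the other 17 it held for 10.

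Hoxb9, a posterior gene that shapes the thoracic skeleton, was the highest Hox gene per length in 2iL d8, with 106 CPM per kb of exon. Its level was 272 CPM (656 counts) in 2iL d8 and 20.4 CPM in 2iL d16, against 3.26 and 2.07 CPM in Basal d8 and d16 and 2.81 to 9.89 CPM in the 4 AICAR cultures. Hoxa9, its paralog, had 66.8 and 14.8 CPM in 2iL against 0.724 and 0.377 CPM in Basal medium. Hoxb8 had 56.4 and 13.2 CPM against 0.362 and 0.565 CPM, and 3.43 to 7.91 CPM in AICAR cultures. Hoxa7, which had no count in Basal d8, stood at 39 CPM in 2iL d8 and 14.8 CPM in 2iL d16. For each of these both 2iL libraries were the highest cultures, and d8 lay above d16.

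The Hoxd and Hoxc clusters showed the same split. Hoxd3 had 106 CPM (256 counts) in 2iL d8 and 12.4 CPM in 2iL d16, at most 0.362 CPM in Basal medium, no count in either AICAR culture at d8, and, at d16, 1.56 CPM in AICAR and 5.27 CPM in AICAR+LIF. Hoxd3 and Hoxd4 share exon sequence (62.3% and 52.3% of their exon bases lie in other genes' exons of that strand), so their reads may have been divided between them. Hoxc4 had 49.4 and 8.02 CPM in 2iL and 0.362 to 2.81 CPM in the other cultures. Hoxc6 had 49.8 and 10.4 CPM in 2iL, but 12.8 CPM in AICAR+LIF d16 and 13.8 CPM (7 counts) in AICAR+LIF d8, so AICAR+LIF overlapped the 2iL range. Counts were few at the far posterior end. In 2iL d8, Hoxd10 had 8 counts, Hoxa11 3, Hoxd11 1, and Hoxa13, Hoxc11, Hoxc12, Hoxd12 and Hoxd13 none, and Hoxb13 had 1. Hoxc13 had 2.49 CPM there, next to 2.17 CPM in Basal d8.

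**Figure D3:**
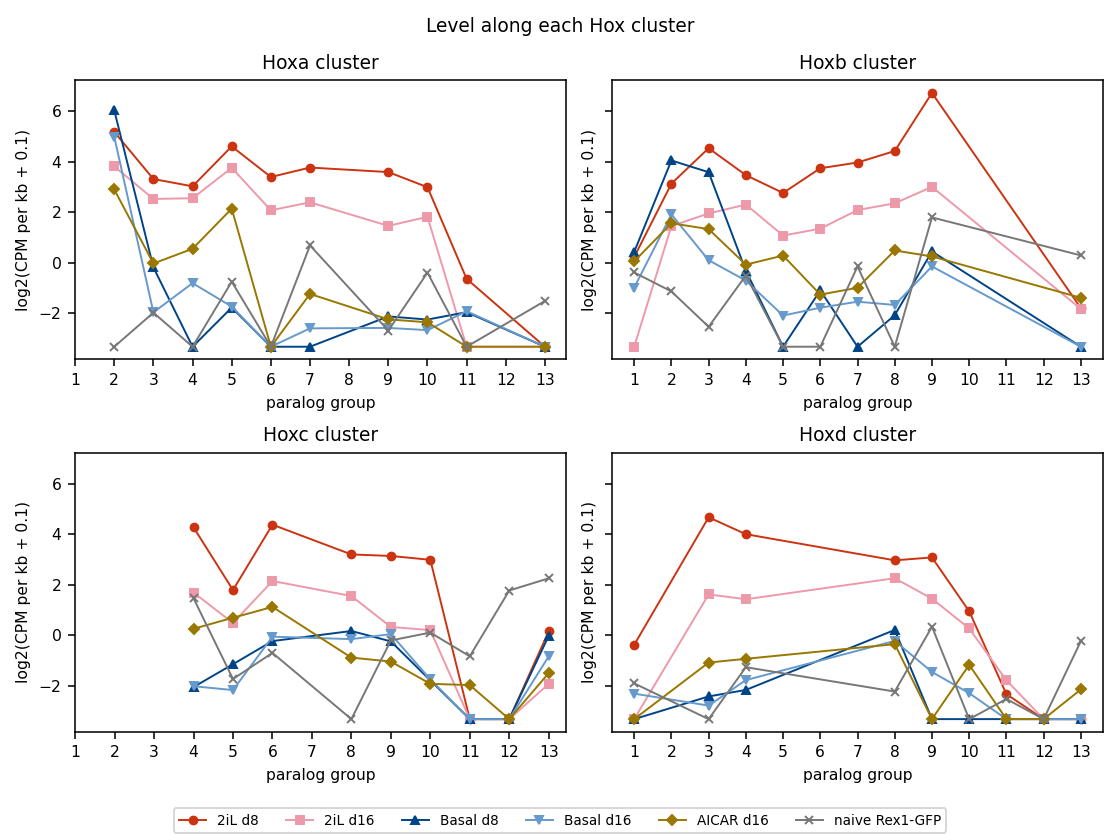
Level per length, log2(CPM per kb of exon + 0.1), against paralog group in each of the 4 clusters for 6 libraries; lines join the genes present in a cluster. In Hoxa, Hoxc and Hoxd the 2iL d8 line lies above the Basal lines from group 3 to group 10 and drops at 11, in Hoxa and Hoxb the Basal lines peak at group 2, and the naive line is highest at Hoxc13.

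With 2 libraries a side, no Hox gene passed the adjusted threshold for 2iL against Basal in edgeR, where 0.00646% of genes were higher at that threshold. The lowest adjusted p among them was 0.0886, for Hoxb8 (log2 difference 5.65, SE 0.64). At an unadjusted p under 0.05, 21 of 25 tested Hox genes were higher (3.31% of all genes tested) and 1, Hoxa2, was lower (-0.98, SE 0.25, adjusted p = 0.370). The filter had fixed the direction of the 8 genes that passed it only through 2iL, and of the other 17 there were 13 higher. DESeq2 called 14 Hox genes higher at its adjusted threshold (0.368% of genes), 9 of them among the 17, and limma none. Leaving out 2iL d16 made 1 Hox gene pass in edgeR.

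Fibroblast and neural markers were present in all cultures, and feeders were in the dishes. The 14 fibroblast markers summed to 3713 CPM in 2iL d8 and 3745 CPM in Basal d8, nearly equal, while central Hox genes summed to 463 CPM in 2iL d8 and 12.7 CPM in Basal d8. At d16 the marker sum was 51265 CPM in 2iL and 6100 CPM in Basal medium, with AICAR at 17955 and AICAR+LIF at 20262 CPM. 13 or 14 of the 14 markers were over 3 counts in every culture. Neural markers summed to 2904 CPM in Basal d8 and 2097 CPM in 2iL d8, and to 1192 and 601 CPM at d16. The part of feeder or neural RNA in the Hox levels was not tested. In cultures against primed cells, 11 of 14 fibroblast and 7 of 8 neural markers were higher (18.1% of all genes were).

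**Figure D4:**
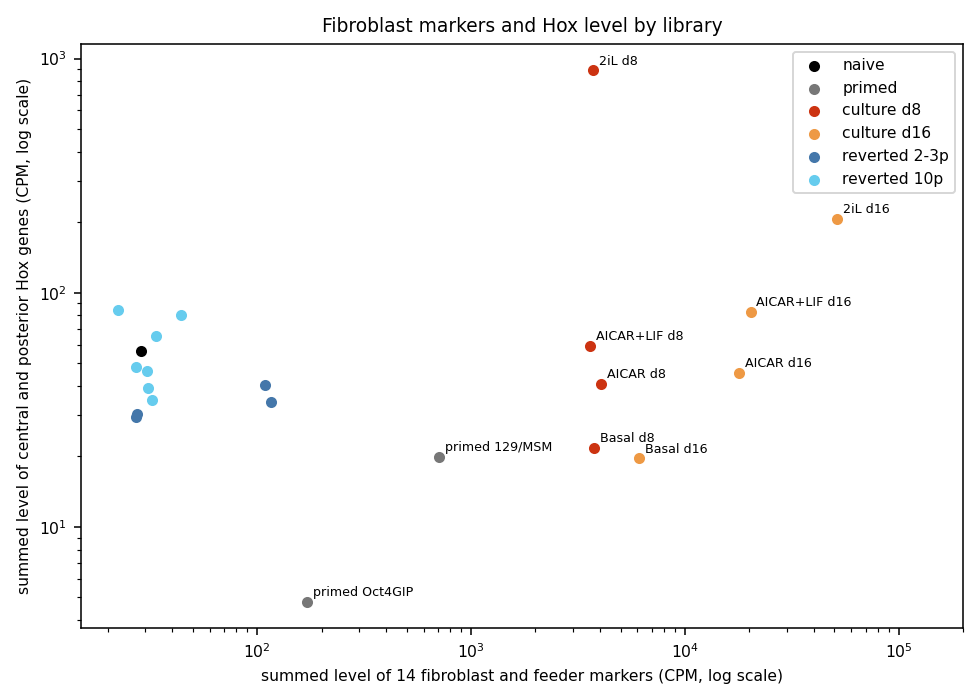
Summed CPM of central and posterior Hox genes (y, log scale) against summed CPM of 14 fibroblast and feeder markers (x, log scale), 1 point per library, coloured by group. The 4 d8 cultures share nearly the same x (3607 to 4061 CPM), with 2iL d8 far above the others, and reverted and naive cells lie at the left, between 22.4 and 116 CPM.

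The second question was what AICAR changed. AICAR with or without LIF (4 libraries) was set against Basal and 2iL (4 libraries) with the day as covariate. Only 11 Hox genes passed the filter, and 1 was lower (6.06% of 14026 genes were). This was Hoxa2, at 13.1 to 23.7 CPM with AICAR and 24.9 to 116 CPM without (mean 19.2 ± 5.38 and 65.4 ± 37.9 CPM, SD, n = 4 each, log2 difference -1.64, SE 0.30, adjusted p = 0.0180 in edgeR). The ranges did not overlap. The call was lost without Basal d8, without AICAR d8 or without AICAR+LIF d8. Neural markers also stood lower with AICAR on each day, at 1273 and 981 CPM against 2904 and 2097 CPM at d8 and at 549 and 560 CPM against 1192 and 601 CPM at d16 (AICAR and AICAR+LIF against Basal and 2iL), and their part was not tested. With no filter on low counts 17 Hox genes were lower, where 6.73% of genes were. The libraries without AICAR hold both 2iL and Basal medium. Without the 2iL libraries, an alternative added after the values were known, Hoxa2 stayed lower (-2.07, adjusted p = 0.0044) and Hoxa5, Hoxb8 and Hoxc6 were higher in AICAR than in Basal medium (3.89, 3.12 and 2.23 on the log2 scale, adjusted p = 0.0361, 0.0266 and 0.0492). In that fit 5.16% of genes were higher and 7.91% lower. Hoxa5, Hoxb8 and Hoxc6 were under the filter level in both Basal libraries and passed it only through AICAR libraries. The filter had thus fixed their direction. At d8 Hoxa5 had 1 count in Basal medium, 1 in AICAR and 0 in AICAR+LIF.

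LIF beside AICAR was compared in values only. Hoxa2 stood at 23.7 CPM with and without LIF at d8 and, at d16, at 16.2 CPM with and 13.1 CPM without. Hoxc6 was 13.8 against 7.58 CPM at d8 and 12.8 against 4.99 CPM at d16, in 1 library each, with no test. At d8 these were 7 counts with and 8 without LIF, few reads from libraries of 438771 and 956357 counts. At d16 they were 34 and 16 counts. For the AICAR difference at d16 minus that at d8, edgeR called 0 of 25 (0.136% of genes in either direction), with 0 at an unadjusted p under 0.05, and DESeq2 and limma 0. Central Hox genes over 3 counts were 3 in AICAR d8 and 11 in AICAR d16, and 2 and 9 in AICAR+LIF, but the d8 libraries of these media were the shallowest.

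Hox levels were lower at d16 than at d8 for the anterior hindbrain genes. With the medium held, Hoxb3 fell by 2.35 on the log2 scale (SE 0.38, adjusted p = 0.00939), Hoxb2 fell by 1.74 (SE 0.27, adjusted p = 0.00899) and Hoxa2 fell by 0.97 (SE 0.18, adjusted p = 0.0146), each lower at d16 in all 4 media. These were 3 of the 11 Hox genes tested, against 9.50% of all genes lower. Without Basal d8 the count was 1. Over all 39 genes the direction differed by medium. Counting genes with over 3 counts on the higher day, 29 stood higher at d8 and 1 at d16 in 2iL, 10 and 4 in Basal, 7 and 10 in AICAR, and 6 and 13 in AICAR+LIF. The d8 libraries of the AICAR media were the shallowest. Over the same interval 5 of 7 tested neural markers fell and 10 of 13 fibroblast markers rose (14.7% of all genes rose), and their part was not tested.

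The third question was what became of the Hox genes in the reverted cells. Reverted 2-3p cells were set against the 4 d16 cultures, of which AICAR and AICAR+LIF are the media the cells came from. Of the 39 genes 31 had passed the filter on low counts. Of these, 15 fell (37.9% of all genes tested fell) and 2 rose (33.2% rose). Falls were thus common over all genes too. Apart from Hoxa3, the genes that fell had passed the filter only through cultures. Hoxc12, which rose, had passed it only outside them. For such genes the filter favoured the direction seen. Against AICAR and AICAR+LIF d16 alone, an alternative added after the values were known, 12 fell (33.3% of genes) and 2 rose (29.8%), and Hoxd8 and Hoxb4 were no longer called (adjusted p = 0.0562 and 0.172 in edgeR). Besides those described next, Hoxa4, Hoxa9, Hoxa10, Hoxb5, Hoxc5 and Hoxc8 fell. Hoxa2 had 0 to 0.760 CPM in reverted 2-3p cells, 2 counts in all, and fell by 6.99 on the log2 scale (SE 0.90, adjusted p = 8.65e-07). The pooled count ratio was 189 (52.0 to 1566). Hoxb3 fell by 5.0 (SE 0.89, adjusted p = 0.000141), with 0 to 1.14 CPM left, and Hoxb2 fell by 3.01 (SE 0.55, adjusted p = 6.5e-05), with 1.09 to 1.48 CPM left. In these 3 genes every reverted library lay below every d16 culture.

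Central genes fell with them. Hoxb8 had 1 count in the 4 reverted libraries (fell by 5.27, SE 1.49, adjusted p = 0.00367), Hoxa5 had 4 (fell by 4.88, SE 1.41, adjusted p = 0.00449), Hoxc6 had 3 (fell by 4.62, SE 1.01, adjusted p = 0.000391) and Hoxd8 had 6 (fell by 3.16, SE 0.94, adjusted p = 0.0053). Pooled ratios of d16 over reverted counts were 48.4 (8.35 to 1947), 26.8 (10.2 to 99.8), 24.6 (8.16 to 122) and 8.36 (3.62 to 23.7). Hoxa3 fell by 3.77 (SE 1.10, adjusted p = 0.00489) to 0.351 to 1.48 CPM, and Hoxb4 fell by 2.46 (SE 1.03, adjusted p = 0.0383) to at most 1.48 CPM. Both, and Hoxa5, overlapped the lowest d16 culture, Basal. Hoxd3, not called (adjusted p = 0.0585), had no count in any of the 4 reverted 2-3p or 7 reverted 10p libraries, nor in naive mESCs. Fibroblast markers fell in 14 of 14 and neural markers in 7 of 8 in the same comparison, and their part was not tested.

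The 2 genes that rose were the far posterior Hoxc12 and Hoxc13, neighbours at the 5′ end of the Hoxc cluster on chromosome 15 (chr15:102936757-102938609 and chr15:102921103-102928814, GRCm38), of which Hoxc13 is known for hair and nail formation. Hoxc13 had 9.17, 9.12, 11.6 and 11.2 CPM in reverted 2-3p cells (AICAR 2p, AICAR+LIF 2p, AICAR 3p, AICAR+LIF 3p) and 0.401 to 1.88 CPM in the d16 cultures (log2 difference 3.28, SE 0.42, adjusted p = 8.67e-07). Hoxc12 had 2.07, 1.90, 1.82 and 2.46 CPM, with no count in any culture or primed library (at least 1.71-fold higher, adjusted p = 0.00046). Neither gene overlapped between the groups.

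Reverted 10p cells were set against primed cells, which also served as the base of the culture comparison, so the 2 share their controls. Of 31 Hox genes tested 3 were higher and none lower (16.7% of genes were higher and 19.9% lower). Hoxc12 had passed the filter only outside the primed and culture libraries, which favoured its direction. Hoxc13 had 9.83 (lowest), 12.1 (median) and 25.3 CPM (highest) over the 7 libraries, against 1.84 and 0.947 CPM in primed cells (log2 difference 3.37, SE 0.53, adjusted p = 4.38e-05). Hoxc12 had 1.23, 4.90 and 10.7 CPM, at least 4.62-fold above the primed floor on average (fitted log2 difference 6.82, SE 1.40, adjusted p = 0.0017). For both genes every reverted library lay above both primed ones. Naive mESCs had 11.5 CPM of Hoxc13 and 3.41 CPM of Hoxc12, each within the range of the reverted 10p libraries.

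**Figure D5:**
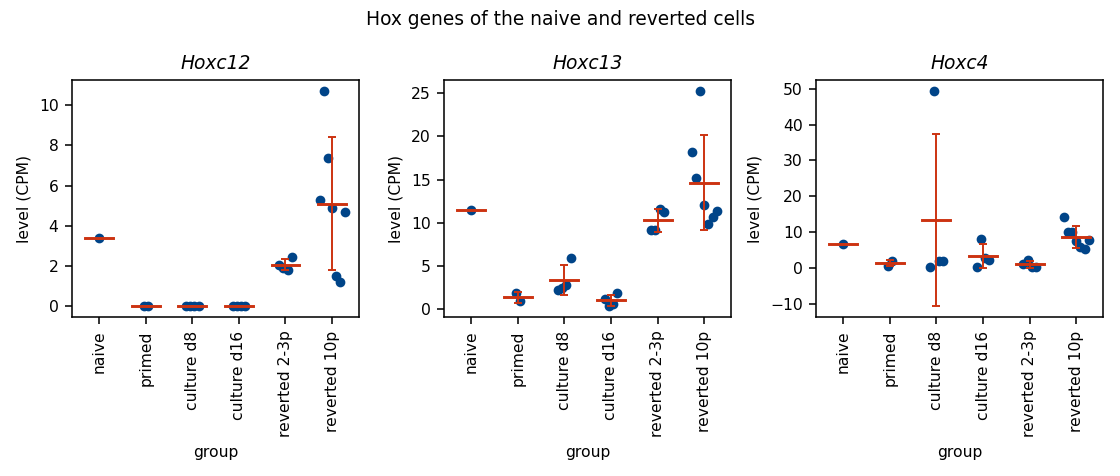
Level (CPM) of Hoxc12, Hoxc13 and Hoxc4 in each library (points) by group, with group means (red lines) and SD (bars, for groups over 1 library). Hoxc12 is at 0 in all primed and culture libraries, Hoxc13 is at 9.12 to 25.3 CPM in all reverted ones, and Hoxc4 peaks in 2iL d8 at 49.4 CPM.

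Other Hox genes of the naive and reverted cells did not pass the test or were not uniform. Hoxc4 had 5.31 to 14.1 CPM in all 7 reverted 10p libraries and 6.83 CPM in naive mESCs, against 0.736 and 1.89 CPM in primed (adjusted p = 0.110) and 0.351 to 2.28 CPM in reverted 2-3p cells. Hoxb9 ran from 1.96 to 31.8 CPM at 10p and 6.54 to 14.5 CPM at 2-3p, with 8.69 CPM in naive mESCs. Its 2 lowest 10p libraries were those of 129/MSM. Hoxd13 had 0.596 to 2.74 CPM at 10p. By activator at 10p, in Oct4GIP cells and 1 library each, Hoxc13 stood at 18.3 CPM with AICAR, 15.2 CPM with AICAR+LIF, 25.3 CPM with A769662, 12.1 CPM with A769662+LIF and 9.83 CPM with metformin+LIF. Without replicates these activators were not compared by a test.

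Between 2-3p and 10p, edgeR called 0 Hox genes (9.35% of genes in either direction), while DESeq2 called 2 (Hoxc4 among them) and limma 1 (Hoxc4). Hoxc4 differed by 3.0 on the log2 scale (SE 0.99, adjusted p = 0.0599 in edgeR), and its 7 late libraries all lay above the 4 early ones. DESeq2 called 5.69% and limma 4.17% of all genes higher.

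The deposited transcript counts split Hoxb2 reads by form. In the 8 cultures 252 of 437 reads (57.7%, Wilson 95% interval 53.0% to 62.2%) were counted on the coding transcript and 185 on a transcript with a retained intron. In the other 14 libraries 2 of 44 reads (4.55%, 1.26% to 15.1%) were on the coding form. Basal d8 had 96 coding and 63 retained reads, and primed Oct4GIP 1 and 6. Hoxb2 shares 27.3% of its exon bases with the antisense gene Hoxb3os Hoxb3 52.9% with the same gene, and Hoxa3 25.4% with Hoxaas2 and others. The use of strand in mapping is not given in the sources used here, so those reads cannot be told apart. The 2 coding forms of Hoxb9 were split alike, with 49.0% (45.5% to 52.6%) of reads on the first in cultures and 47.6% (42.9% to 52.4%) elsewhere. Reads that match several forms are placed on 1 of them by the mapper, so a split between forms depends on the sequence they do not share.

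Noncoding genes of the clusters were present in cultures. Hoxaas2, which overlaps Hoxa3, had 10.3 to 67.0 CPM in cultures, no count in primed cells and 1 count in 1 reverted library. Hoxb3os had 3.75 to 23.9 CPM in cultures and no count elsewhere. The 3 of these genes that could be tested, Hotairm1 among them, rose in cultures against primed cells and fell in reverted 2-3p cells (18.1% and 37.9% of all genes did). In 2iL against Basal their median log2 difference was -0.97, against 4.59 over the 25 Hox genes tested and -0.02 over all genes, and none passed the adjusted threshold. Of the 25 Hox genes, 8 had passed the filter only through the 2iL libraries, which fixed their direction.

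Partners and regulators of Hox proteins moved in part. TALE cofactors (Pbx, Meis and Pknox proteins bind DNA with Hox proteins) rose in 5 of 9 in cultures against primed cells, fell in 7 of 9 in reverted 2-3p cells against d16, and in reverted 10p against primed cells 1 rose and 4 fell. The shares of all genes were 18.1%, 37.9%, 16.7% and 19.9%, respectively. Meis1 had 61.5 to 259 CPM in cultures against 0.368 and 6.0 CPM in primed cells (log2 difference 5.35, SE 0.75, adjusted p = 2.29e-05), and 0 to 2.77 CPM in reverted cells. Cdx1, which activates Hox genes in the posterior embryo, had no count in 7 of the 8 cultures, 2iL d8 among them, and 1 count in 2iL d16. It had 48.4 CPM in naive mESCs and 10.2 to 76.8 CPM in reverted cells. Cdx2 and Cdx4 had no count in 2iL d8 or d16.

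Retinoic acid genes rose in 4 of 14 tested and fell in 1 in cultures against primed cells, where 18.1% of all genes rose and 19.4% fell. Cyp26b1, which breaks down retinoic acid, had 26.8 to 148 CPM in cultures and 0 and 0.316 CPM in primed Oct4GIP and 129/MSM. Polycomb genes, whose products silence Hox clusters, rose in 5 and fell in 7 of 17. Of 7 trithorax genes, whose products keep Hox genes active, 5 fell in cultures against primed cells and 6 rose in reverted 10p cells against primed (16.7% of all genes rose), Kmt2a not among either. In reverted 10p against primed cells Polycomb genes rose in 7 and fell in 3 of 17. Retinoic acid genes rose in 1 and fell in 6 of 14 there, where 19.9% of all genes fell. Their median log2 differences in cultures were 0.64, -0.29 and -0.68 for retinoic acid, Polycomb and trithorax genes, against 0.04 over all genes.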

How the data were processed

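RNA-seq gave 22 libraries of mouse cells. Per the study's methods, stranded mRNA libraries were sequenced as single reads and mapped with Bowtie2 2.2.5 to Ensembl cDNA and ncRNA, and alignments with a MAPQ of at least 1 were kept. The authors deposited whole read counts per gene and per transcript, without normalization. No other unit was used. For all 39 Hox genes transcript counts summed to the gene count. A MAPQ minimum can discard reads that fit several sequences equally.

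Counts were scaled to CPM with TMM factors over 22 libraries. Tests used the quasi-likelihood F-test in edgeR 4.0.16 under R 4.3.3 (filterByExpr by group, Benjamini-Hochberg adjustment at 0.05 over all genes tested). Primed, culture and reverted groups were fitted in 1 model of all 22 libraries in 6 groups, and media and days in the 8 culture libraries, with the day or the medium as covariate. The study's methods state no test between groups of these libraries. Alternatives used DESeq2 1.42.0, limma 3.58.1, no factors, other filters, counts thinned to 438771 per library, other sets of libraries and libraries left out 1 at a time. All tests were tried on simulated data. A fold against a group with no count used the highest level of 3 counts among its libraries. Intervals and floors cover counting error only. Full statistics were given to at most 10 Hox genes per comparison, those with the largest log2 difference among genes with an adjusted p under 0.05 and a mean of at least 5 CPM in the higher group; Hoxc12 against d16 and Hoxc4 were added after their values were seen.

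The members, gene lists and comparisons were chosen with earlier results of these data known. The rows of Men1 share 1 symbol and were left out, and Pdx1, Hotair, Hottip and Haglros were not analysed here. Values of 1 gene in the set are not reported here. Positions and exon lengths are from GENCODE M21 on GRCm38. Python 3.11.15 with pandas, scipy and matplotlib made the other tables and figures.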

Additional observations from a re-analysis of the deposited data

Results flagged for a closer look

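In groups of 4 to 10 libraries, the highest and the lowest library were tested for standing apart from the rest by Dixon's ratio. The genes with full statistics and the Hox sum were tested (28 tests). Chance flags about 1 in 20 tests of values not picked beforehand, but these genes were picked for large differences in the same data. The 2iL d8 library stood apart among the d8 cultures for the summed Hox level (1255 CPM) and for Hoxa3 (59.3 CPM), Hoxb8 (56.4 CPM), Hoxd4 (46.9 CPM), Hoxa5 (45.6 CPM), Hoxb4 (28.2 CPM) and Hoxd8 (21.2 CPM). The 2iL d16 library stood apart among the d16 cultures for Hoxa3 (34.1 CPM) and Hoxd4 (7.62 CPM). Each of the 4 libraries of a day had another medium, so the library and its medium cannot be told apart.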

How the results depend on the processing

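The labels carry no replicate numbers, but they name line, medium or activator, day and passage. The day comparison matched libraries by medium, and the AICAR and 2iL comparisons held the day. The culture and reverted 2-3p libraries were all of Oct4GIP, so comparisons among them lay within 1 line. Those with primed or reverted 10p libraries mixed Oct4GIP and 129/MSM, and the line was not held. Of 453 values of single genes under an alternative, 395 kept their direction and their side of the threshold, 58 kept the direction only and 0 reversed. Counts of Hox genes called were less stable, and except where the setting's construction shows it (fewer genes or libraries), the cause was not tested. The percentage beside each count is the share of all genes that the same fit called in either direction. Cultures against primed cells gave 12 genes (37.5%), but 6 with limma (37.8%), 5 with at least 10 counts in every library of a group (42.1%), 3 with thinned counts (28.9%), 4 with only the compared groups fitted (28.9%), 7 without 2iL libraries (34.9%), and 4 to 16 with 1 library left out (4 without primed Oct4GIP, 22%, and 5 without primed 129/MSM, 30.6%). Reverted 10p against primed cells gave 3 (36.6%), but 5 with DESeq2 (37.3%) and 1 with thinned counts (26.3%). Reverted 2-3p cells against d16 gave 17 (71.1%), but 6 with the filter of 10 counts (74.3%), 7 thinned (64.4%) and 4 with only the compared groups (76.2%). Reverted 10p against 2-3p cells gave 0 (9.35%), but 2 with DESeq2 (11.8%) and 1 each with limma (9.9%), no filter (4.47%) or only the compared groups (22.3%). Day 16 against day 8 gave 3 (24.2%), but 5 with limma (30.5%), 6 with no filter (16%) and 1 to 4 with 1 library left out (1 without Basal d8, 9.01%). AICAR gave 1 (9.6%), but 18 with no filter (10.6%, 17 of the 18 lower), 0 without the day (0.264%), 4 without 2iL libraries (13.1%) and 0 to 1 with 1 library left out (1.69% to 18.5%). Media 2iL against Basal gave 0 (0.0129%), but 14 with DESeq2 (0.62%), 22 with no filter (1.3%) and 0 to 1 with 1 library left out (1 without 2iL d16, 0.00608%). The AICAR difference between days gave 0 (0.136%), but 5 with no filter (3.87%). The settings without 2iL libraries, and that with only the AICAR cultures of d16, were chosen after seeing the data. Depth limits low genes most in AICAR+LIF d8, where 3 counts equal 5.93 CPM.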

Other observations

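Hoxb13, the most posterior gene of its cluster, had 26 counts (9.79 CPM) in AICAR+LIF d16, chosen here after its values were seen. The other cultures had 0 to 2 counts of it, naive mESCs 8 counts (2.48 CPM) and reverted cells 0 to 6. Hoxc13 and Hoxd13 in AICAR+LIF d16 were at 5 and 0 counts. Hoxb1, an anterior gene of hindbrain development, was low throughout, with 0 to 5.93 CPM in cultures and 2.21 CPM in primed Oct4GIP, its highest Hox gene per length. Primed 129/MSM cells had no Hox gene above 10 counts. 5 Hox genes had at most 3 counts in each of the 22 libraries.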
